A study of Mus musculus with 4 samples.

Results

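Conventional CD4 T cells without Foxp3 were a small population of the immune cells in EO771 mammary tumors. They were chosen by measured transcripts, counted as unique molecular identifiers (UMIs, 1 for each captured RNA molecule). A cell had at least 1 Cd4 UMI and at least 1 UMI of Cd3d, Cd3e or Cd3g, and no UMI of Foxp3, Ikzf2, Tcf7, Trdc, Siglech, Cd8a or Cd8b1. S100a8 and S100a9 together had to stay under 300 and C1qa, C1qb and C1qc together under 20 per 10000 UMIs of the cell, and cells with both Mki67 and Top2a were left out. Of 28429 cells that the study kept, 127 passed, and the genes of this rule are given below as a description only.

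The cells came from EO771 tumors, a mouse mammary cancer line injected into the mammary fat pad of female C57BL/6 mice and harvested at 1.5 cm3. Of the 4 tumors, 2 grew in Csf1rfl/fl mice, whose Csf1r gene is floxed but intact because no Cre is present, and 2 grew in Lyve1CreCsf1rfl/fl mice, in which Cre under the Lyve1 promoter removes Csf1r from cells that express Lyve1, a model made to deplete LYVE-1+ macrophages; the promoter is also active in lymphatic endothelium. Viable CD45+ cells were sorted, labelled with a hashtag antibody per tumor and captured in 2 Chromium runs, each pooling 1 tumor of each genotype, and each cell was given to the tumor with the higher hashtag. Values over the 4 tumors are given in the order Csf1rfl/fl of run 1 and run 2, then Lyve1CreCsf1rfl/fl of run 1 and run 2.

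CD4 T cells recognize peptides on MHC class II. Conventional CD4 T cells give help through secreted cytokines and through surface ligands of the TNF family such as CD40L, whereas regulatory T cells, which depend on the transcription factor FOXP3, restrain immune responses. In tumors, conventional CD4 T cells are known for IFNγ production, for licensing dendritic cells to prime CD8 T cells and, in some settings, for direct killing.

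The 127 cells were 38, 25, 41 and 23 in the 4 tumors. Of 2668 kept cells with a Cd4 UMI, 2244 also had a Cd3 UMI and 1902 of those had no Cd8a or Cd8b1 UMI. The requirement for no Foxp3 left 879, no Ikzf2 left 272 and no Tcf7 left 170, and the myeloid, plasmacytoid and cycling limits removed the remainder. Just inside the limits lay a cell with 263.3 UMIs of S100a8 and S100a9 per 10000 and a cell with 12.3 of C1q, and just outside, among cells left out by that limit alone, lay cells with 344.3 and 23.8. Of the 127 cells, 64 had exactly 1 Cd4 UMI and 24 exactly 1 Cd3 UMI, and 4 further cells were left out because of a single Foxp3 UMI.

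The T-cell part of the label was checked against transcripts outside the rule. A UMI of the T-cell receptor constant regions Trac, Trbc1 or Trbc2 was found in 113 of the 127 cells (89.0%), in 95.1% of the cells with 2 or more Cd3 UMIs and in 62.5% of those with 1. Icos, the inducible costimulator of activated T cells, was found in 49 cells (38.6%, at a median depth of 3284 UMIs), against 0.6% of 5164 granulocyte-gated cells with a median of 2240 UMIs and 1.0% of 1000 C1q-gated macrophage-like cells with a median of 5380 UMIs. The B-cell marker Cd79a was found in 3 cells, the NK receptor Ncr1 in 4, and the γδ T-cell gene Tcrg-C2 in none. At least 1 UMI of the whole list was found in 22 cells for B cells, in 34 for plasmacytoid dendritic cells, in 4 for γδ T cells, in 93 for granulocytes, in 62 for macrophages, in 78 for dendritic cells and in 77 for NK and NKT cells, a list that includes the myeloid-expressed genes Tyrobp and Fcer1g (54 and 64 cells). Myeloid transcripts were present, with Lyz2 in 41 cells (32.3%) and Tyrobp in 54 (42.5%), and the MHC class II gene H2-Ab1 in 31 (24.4%). At least 1 UMI of the regulatory T list was found in 113 cells. Of its genes, Il2rb was found in 73, Capg in 64, Il2ra in 17 and Ikzf4 in 3. Trac was found in 87.2% and Icos in 75.5% of the regulatory T cells compared below, so neither separates the 127 cells from them. Requiring no Ikzf2 UMI removed 607 cells without a Foxp3 UMI. The share of regulatory T cells left among the 127 was not tested.

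The summed UMIs of these cells were 126502, 140688, 197638 and 123421, and the median per cell was 2934, 4189, 2986 and 4239. Scrublet, a caller of mixed droplets, marked 28 of the 127 cells (22.0%) as doublets, with a median of 6252.5 UMIs against 2792 in the others. They were 6, 7, 10 and 5 in the 4 tumors, and of all kept cells Scrublet marked 22.0% in run 1 and 13.7% in run 2. No barcode was shared between the conventional CD4 T cells of the 2 runs. A single cell of the Lyve1CreCsf1rfl/fl tumor of run 1 held 46425 UMIs, 23.5% of that tumor's sum, against 16470 in the next deepest cell of all tumors. This cell had 1 Cd4 and 1 Cd3 UMI, no T-cell receptor constant UMI, no Ptprc UMI, and 44 of the 47 UMIs of stromal or tumor cell markers in the 127 cells, so results were also computed without it.

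Conventional CD4 T cells were 0.441% (95% Wilson interval 0.322 to 0.605), 0.321% (0.218 to 0.474), 0.566% (0.417 to 0.766) and 0.482% (0.321 to 0.722) of the kept cells of the 4 tumors, of 8613, 7786, 7248 and 4771 cells. Both Lyve1CreCsf1rfl/fl tumors lay above both Csf1rfl/fl tumors, while the intervals, which cover counting error only, overlapped. The tumors of the genotypes also overlapped without Scrublet doublets (0.504% and 0.267% against 0.514% and 0.44%) and with 2000 to 8000 UMIs per cell (0.521% and 0.339% against 0.553% and 0.407%), each with p = 0.667 in the exact permutation test. The mean was 0.381% ± 0.0849 (SD, n = 2) in Csf1rfl/fl and 0.524% ± 0.0591 (SD, n = 2) in Lyve1CreCsf1rfl/fl tumors, a log2 ratio of 0.46 (exact two-sided permutation test, p = 0.333, the smallest p that 2 against 2 tumors allow). Within run 1 the log2 ratio was 0.36 and within run 2 it was 0.59, and their mean, the value with the run as a replicate block, was 0.47.

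Against the kept cells with a Cd3 UMI, the shares were 1.17%, 1.0%, 1.61% and 1.04%, and the Csf1rfl/fl tumor of run 1 then lay above the Lyve1CreCsf1rfl/fl tumor of run 2. The log2 ratio was 0.29 (exact permutation test, p = 0.667), with 0.46 within run 1 and 0.06 within run 2. With Tcf7 left out of the rule the log2 ratio of the share of kept cells was 1.05, because the Lyve1CreCsf1rfl/fl tumor of run 2 held 41 Tcf7-positive CD4 T cells against 15, 8 and 18 in the other tumors. The study removed lymphocytes rich in ribosomal transcripts that came almost entirely from that tumor, and 77 of its barcodes not kept passed the same rule. In a CD45+ sort a share moves with every other population, so it does not give a number of cells per tumor.

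**Figure D1:**
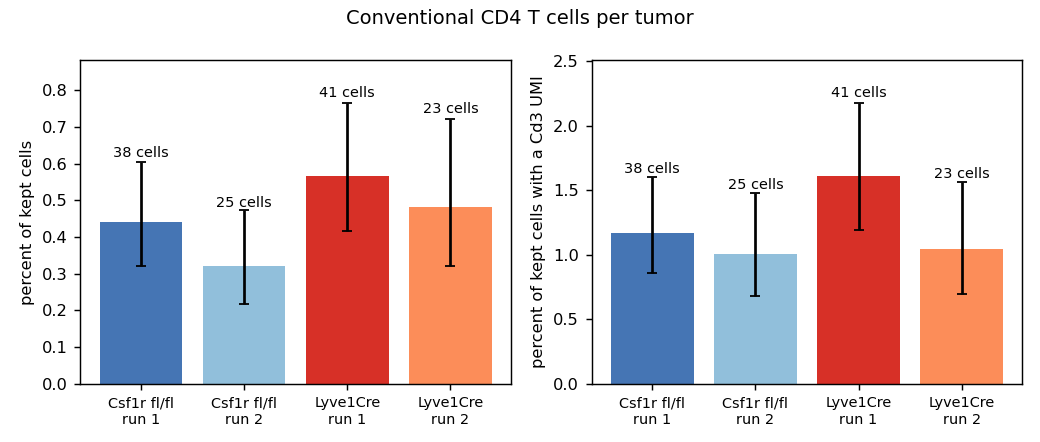
Share of conventional CD4 T cells in each tumor, as percent of kept cells (left) and percent of kept cells with a Cd3 UMI (right), with 95% Wilson intervals as bars and the number of cells above them. The 4 tumors sit between 0.321% and 0.566% on the left and between 1.0% and 1.61% on the right, with overlapping intervals.

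The cells carried a helper and effector profile that differed from cell to cell. Levels are UMIs of a gene per 10000 UMIs summed over the cells of a tumor, and n = 4 tumors for each mean ± SD. Ifng, the gene for IFNγ (chromosome 10, 118441046 to 118445892, mm10), was found in 36 cells (28.3%; 0.968% of granulocyte-gated and 1.5% of C1q-gated cells), at 1.19, 4.34, 1.01 and 2.92. The second run was higher than the first in both genotypes, but each of its levels rested mostly on 1 cell. In the Csf1rfl/fl tumor of run 2, 1 cell held 43 of 61 Ifng UMIs, which were 32.6% of all Ifng UMIs. In the Lyve1CreCsf1rfl/fl tumor of run 2, 1 cell held 26 of 36. The run difference without these cells was not tested. Tbx21, the gene for the Th1 factor T-bet, was found in 16 cells and in 6 of the Ifng-positive cells. Other Th1 genes were found in larger shares of cells, with Stat4, a transducer of IL-12 signals, in 49 and Il18r1, an IL-18 receptor chain, in 45. Csf2, the gene for GM-CSF, was found in 12 cells, and Il2 in 2.

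Helper ligands were present in smaller groups of cells. Cd40lg, the gene for CD40L (chromosome X, 57212143 to 57224042), was found in 29 cells (22.8%, against 0.0387% of granulocyte-gated and 0.1% of C1q-gated cells), at 0.474, 0.711, 0.658 and 0.567. These levels were close to each other in all 4 tumors. Tnfsf8, the gene for CD30L (chromosome 4, 63831308 to 63861347), was also found in 29 cells, at 1.03, 0.426, 1.42 and 2.43, and 1 cell held 33.8% of its UMIs. Tnfsf11, the gene for RANKL, was found in 19 cells. Cd40lg and Ifng were found together in 10 cells, Cd40lg and Tnfsf8 in 10, and Cd40lg and a granzyme (Gzma or Gzmb) in 6.

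Cytotoxic transcripts were uneven. Nkg7, a cytolytic granule gene, was found in 56 cells (44.1%, against 4.26% and 6.9% of the granulocyte-gated and C1q-gated cells), at 7.35, 4.98, 2.18 and 4.78. Gzma (chromosome 13, 113093825 to 113100981) was found in 16 cells, at 15.0, 0.142, 3.29 and 10.6, and the Csf1rfl/fl tumor of run 2 was far below the other tumors. Gzma was at 0.692 in the 28 cells called doublets and at 9.37 in the others. The share of cells with a Gzma UMI, 12.6%, was close to the 9.6% of C1q-gated cells. A single cell held 36.9% of its UMIs, which were 143 of the 190 in the Csf1rfl/fl tumor of run 1. Another held 64 of the 65 in the Lyve1CreCsf1rfl/fl tumor of run 1, and another 128 of the 131 in that of run 2. Each of these cells had 1 Cd4 UMI and no Cd3e UMI. Gzmb was found in 26 cells, and 12 of the 16 Gzma-positive cells also had Gzmb. Perforin (Prf1) was found in 7 cells. Of the 30 cells with Gzma or Gzmb, 28 had Nkg7, 10 had Ifng and 1 had Tnfsf8.

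Ccl5, the gene for a chemokine of effector and memory T cells, was found in 65 cells, at 40.0, 15.2, 6.83 and 40.0. Its levels spread as widely within a genotype as between genotypes, and C1q-gated cells had a Ccl5 UMI in 40.5% of cases. In each tumor of run 2 the level rested mostly on 1 cell. That cell held 188 of 214 Ccl5 UMIs in the Csf1rfl/fl tumor and 374 of 494 in the Lyve1CreCsf1rfl/fl tumor. Ccl1, a ligand of CCR8, was found in 13 cells (2, 3, 7 and 1 in the 4 tumors), at 1.11, 3.98, 2.68 and 1.22. A single cell held 34.8% of its UMIs, and all 15 UMIs of the Lyve1CreCsf1rfl/fl tumor of run 2 lay in 1 cell. Itgb1, the β1 integrin chain, was found in 83 cells (65.4%, against 22.0% of granulocyte-gated and 62.0% of C1q-gated cells), and Cxcr6, a chemokine receptor of tissue-resident T cells, in 50 (39.4%, against 0.329% and 0.4% of the granulocyte-gated and C1q-gated cells). Of the Cxcr6-positive cells, 35 had Nkg7 and 28 had Pdcd1, the gene for PD-1. Pdcd1 was found in 44 cells (34.6%) and Ctla4 in 35, while Tigit and Tox2 were found in 3 cells each.

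Signature cytokines of other helper programmes were found in few cells. Il4 was found in 3 cells, Il13 in 1 and Il5 in none, while Gata3, a factor shared by Th2 cells and other activated T cells, was found in 39. Il17f was found in 1 cell and Il17a in none. Il22 had 55 UMIs, all in 1 cell of the Lyve1CreCsf1rfl/fl tumor of run 1. For the follicular helper programme, Il21 was found in 4 cells, Cxcr5 in 2 and Bcl6 in 10, and Cxcl13 in none. Other genes of these lists were found more widely, with Rora of the Th17 list in 41 cells and Maf and Sh2d1a of the Tfh list in 71 and 30, and at least 1 UMI of the whole list was found in 60 cells for Th2, 46 for Th17 and 91 for Tfh. Of 127 cells, a count of 0 allows a share of cells with a UMI of up to 2.36% at this depth. This limit takes the cells as independent and covers counting error only, not the spread between tumors. Genes of naive or recirculating T cells were found in a minority, with Lef1 in 14 cells, S1pr1 in 20 and Ccr7 in 10.

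**Figure D2:**
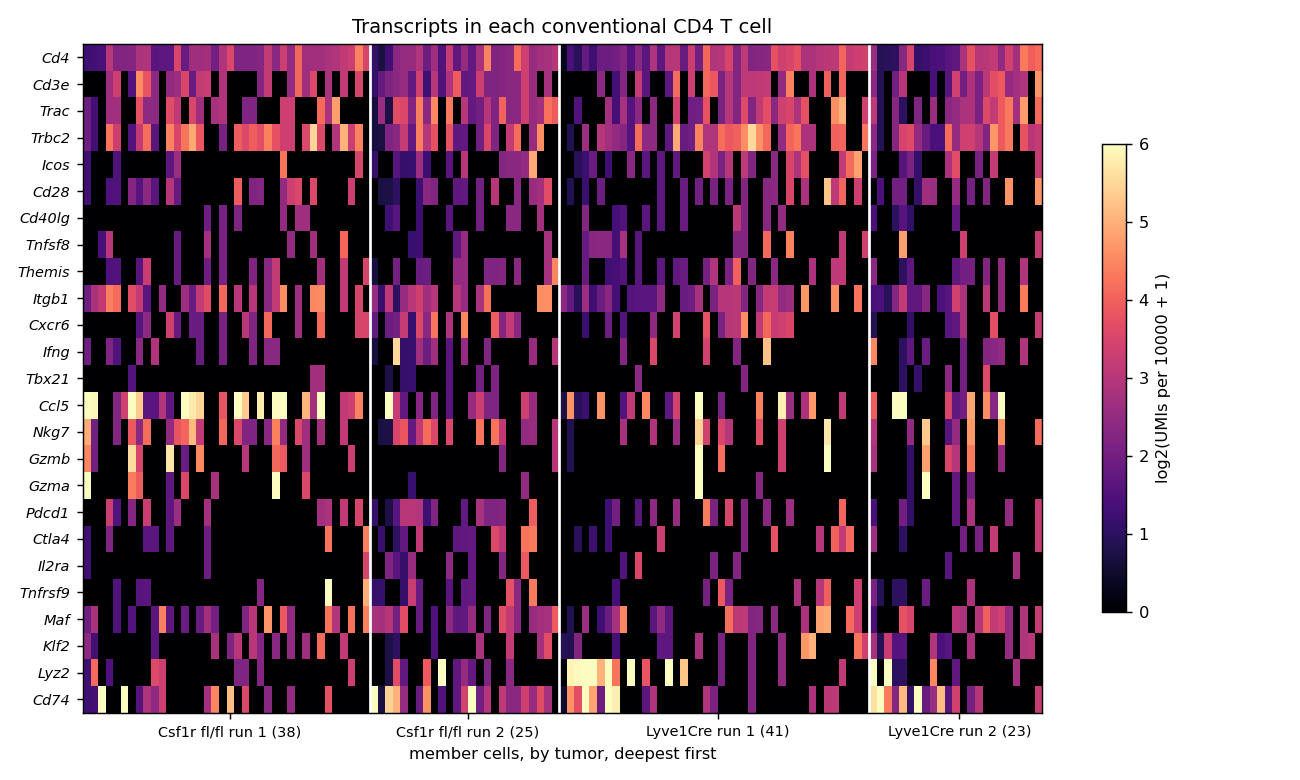
Heat map of log2(UMIs per 10000 + 1) of selected transcripts in each of the 127 cells, with cells in columns grouped by tumor and the deepest first, so that a single UMI gives a brighter tile in a shallow cell. Ifng, Cd40lg and the granzymes each appear in a minority of cells (36, 29 and 30 cells), with some cells in common, while Itgb1 (83 cells) and Maf (71 cells) spread over most of them.

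The first comparison set the conventional CD4 T cells against regulatory T cells of the same tumors (the same rule with at least 1 Foxp3 UMI and Ikzf2 free; 115, 203, 195 and 111 cells). Counts were summed per tumor and tested with edgeR's quasi-likelihood test, the tumor being a block, and p-values were adjusted by Benjamini-Hochberg, with 0.05 as the threshold. Of 4453 genes tested, 97 passed (2.18%), with 32 higher in the conventional cells (0.719%) and 65 lower (1.46%). The higher genes included the ligand gene Tnfsf8 and the effector genes Ccl1, Gzma and Ifng, which had the largest named differences, and the lower genes included Itgb8 and Ikzf4, which had the largest, and 4 receptors of the TNF receptor family. The count was 169 without the Csf1rfl/fl tumor of run 1, 38 without the Lyve1CreCsf1rfl/fl tumor of run 1 and 57 without the Lyve1CreCsf1rfl/fl tumor of run 2. All comparisons below use the same conventional cells and so share these samples.

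Helper ligands were higher in the conventional cells than in the regulatory T cells. Tnfsf8 was at 1.33 ± 0.842 (SD, n = 4) in them and at 0.0529, 0.0190, 0.0936 and 0.0221 in the regulatory T cells, so that no tumor overlapped (log2 difference 4.67 ± 0.41 SE, edgeR adjusted p = 0.000204). Cd40lg was at 0.603 ± 0.104 (SD, n = 4) against 0.0705, 0.0665, 0.12 and 0.132, again without overlap (log2 difference 2.76 ± 0.40 SE, edgeR adjusted p = 0.00216). The other members of the costimulatory list that passed were receptors, and all 5 were lower: Icos (log2 difference -1.54), Tnfrsf4 (OX40; -1.85), Tnfrsf18 (GITR; -1.36), Tnfrsf9 (4-1BB; -2.74) and Cd27 (-2.21). Tnfrsf9 was at 1.42, 1.78, 0.607 and 0.891 in the conventional cells and at 7.05, 7.91, 9.44 and 8.26 in the regulatory T cells. Of 9 costimulatory genes tested, 2 were thus higher and 5 lower, with a median log2 difference of -1.36 against 0.04 over all genes tested.

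Among the Th1 genes, 1 of 9 tested passed. Ifng was at 2.36 ± 1.57 (SD, n = 4) in the conventional cells and at 0.212, 0.209, 0.548 and 0.177 in the regulatory T cells, with every tumor higher in the conventional cells (log2 difference 3.04 ± 0.47 SE, edgeR adjusted p = 0.00384). Ifng was at 4.37 in the 28 cells called doublets and at 1.25 in the others, and without Scrublet doublets it stayed past the threshold. Tbx21 was at 0.366 ± 0.22 against 0.319 ± 0.0759 (SD, n = 4) and did not pass (edgeR adjusted p = 0.851). The median log2 difference over the 9 genes was 0.65.

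The cytotoxic list had 2 of 8 genes higher and none lower, with a median log2 difference of 1.39. Klrd1, the gene for the lectin receptor CD94, was at 1.66, 4.55, 1.26 and 2.84 against 0.511, 0.485, 0.147 and 1.04 (log2 difference 2.46 ± 0.31 SE, edgeR adjusted p = 0.000841), and the groups did not overlap. Gzma was higher in each tumor but by sizes from 0.142 against 0.0855 to 15.0 against 0.458 (log2 difference 3.48 ± 0.55 SE, edgeR adjusted p = 0.0042). A single conventional cell held most Gzma UMIs of the Csf1rfl/fl tumor of run 1 and of each Lyve1CreCsf1rfl/fl tumor. The Gzma call was lost without the replicate block (edgeR adjusted p = 0.128) and without the Lyve1CreCsf1rfl/fl tumor of run 1 (edgeR adjusted p = 0.0679). Of 4 chemokine genes tested, Ccl1 was higher (log2 difference 3.97, edgeR adjusted p = 0.0099) and lost its call without the same tumor (0.113). Ccl5, at 25.5 ± 17.1 against 9.87 ± 3.47 (SD, n = 4), did not pass (edgeR adjusted p = 0.255).

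Receptors of adhesion and migration split in direction. Itgb1 (chromosome 8, 128685654 to 128733200) was at 6.48, 4.76, 3.44 and 3.08 in the conventional cells and at 1.08, 1.34, 0.789 and 1.13 in the regulatory T cells (log2 difference 2.12, edgeR adjusted p = 0.00032), with no overlap. Cxcr6 (chromosome 9, 123806475 to 123811760) was higher, at 2.21 ± 1.46 against 0.395 ± 0.195 (SD, n = 4; log2 difference 2.62, edgeR adjusted p = 0.0106). Itga4, the α4 integrin chain, was also higher (1.35). Ccr2 (-1.19) and Itgb7 (-1.61) were lower, so that 3 of 10 trafficking genes tested were higher and 2 lower. Both CCR2, a chemokine receptor, and the β7 integrin chain serve entry into tissue. Without the Lyve1CreCsf1rfl/fl tumor of run 1 the calls of Cxcr6, Itga4, Ccr2 and Itgb7 were lost (edgeR adjusted p = 0.081, 0.0599, 0.0663 and 0.0955), and that of Itga4 also without the replicate block (0.0624).

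Genes tied to T-cell receptor signalling mostly did not pass. Of 12 tested, Themis was higher and Cd2 lower. Themis, a signalling adaptor of the T-cell receptor (chromosome 10, 28668360 to 28883818), was at 1.34, 1.42, 1.11 and 1.13 against 0.123, 0.266, 0.174 and 0.265, and was among the evenest differences over tumors (log2 difference 2.71 ± 0.30 SE, edgeR adjusted p = 0.000531). None of the 4 genes of the receptor complex passed. Further genes higher by the naming rule were Evl, an actin regulator (2.62), Pde7a, a cAMP phosphodiesterase (2.10), Serpinb9, an inhibitor of granzyme B (1.93), and B4galnt1, a ganglioside synthase (1.67). Fosb was the only immediate early gene of 11 tested that passed (1.55), and lost its call in DESeq2 (adjusted p = 0.0711) and with at least 2 Cd3 UMIs per cell (edgeR adjusted p = 0.0522). Without the Lyve1CreCsf1rfl/fl tumor of run 1 the calls of Cd2, Pde7a and Fosb were lost (edgeR adjusted p = 0.106, 0.0981 and 0.152), without the Lyve1CreCsf1rfl/fl tumor of run 2 that of Cd2 (0.0875), and without the Csf1rfl/fl tumor of run 2 those of B4galnt1 and Fosb (0.129 and 0.111).

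Of the regulatory T-cell genes other than those of the rule, 5 of 9 tested were lower. Il2ra, the gene for CD25 (chromosome 2, 11642807 to 11693193), was at 0.237, 1.35, 0.405 and 0.162 in the conventional cells and at 3.28, 3.4, 4.78 and 3.69 in the regulatory T cells (log2 difference -2.77, edgeR adjusted p = 0.00122), without overlap. The 5 were Ikzf4, Il2ra, Itgae, Izumo1r and Klrg1, none was higher, 2 of the 9 had positive log2 differences, and the median was -1.84. The calls of Klrg1 and Izumo1r were lost without the Csf1rfl/fl tumor of run 2 (edgeR adjusted p = 0.0883 and 0.0682) and without the Lyve1CreCsf1rfl/fl tumor of run 1 (0.163 and 0.0751), and that of Izumo1r without the Lyve1CreCsf1rfl/fl tumor of run 2 (0.152) and without the replicate block (0.0513). Both were also lost in DESeq2 (adjusted p = 0.243 and 0.146). The rule separates the 2 populations by Foxp3 and leaves Ikzf2 free in the regulatory T cells, so the list's direction follows from the choice of cells and is not independent evidence. Itgb8, the integrin chain that activates TGFβ, had 2 UMIs in the conventional cells against 278, a ratio of 0.0345 (exact 95% counting interval 0.00416 to 0.126), and Ikzf4 had 3 against 274, a ratio of 0.0525 (0.0108 to 0.155). Ctla4 was the only inhibitory receptor of 8 that passed, at 1.18 ± 0.498 against 5.12 ± 0.352 (SD, n = 4; log2 difference -2.04, edgeR adjusted p = 0.000531).

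Pdcd1 was at 1.53 ± 0.67 against 0.86 ± 0.196 (SD, n = 4), with the conventional cells above in 3 of 4 tumors, and did not pass (edgeR adjusted p = 0.173). Maf, a transcription factor of Tfh, IL-10-producing and other effector T cells, was lower (log2 difference -1.35), as were Il7r (-0.82), Areg (-2.86), the gene for the repair factor amphiregulin, and Cxcl9 (-3.33). The remaining lower genes by the naming rule were Sv2c (-3.4), Hells (-3.28), a chromatin remodeller of dividing cells, Bmyc (-3.13) and Ttn (-3.04). Without the Lyve1CreCsf1rfl/fl tumor of run 1 the calls of Il7r, Areg and Hells were lost (edgeR adjusted p = 0.11, 0.165 and 0.116), without the Lyve1CreCsf1rfl/fl tumor of run 2 those of Il7r and Hells (0.133 and 0.0545), and without the Csf1rfl/fl tumor of run 2 or the replicate block that of Il7r (0.099 and 0.108). Il7r was also lost in DESeq2 (adjusted p = 0.139) and without the cell of over 20000 UMIs (edgeR adjusted p = 0.062). No gene of the cell cycle, heat shock, granulocyte, macrophage or dendritic lists passed in this comparison. All 7 macrophage and all 5 dendritic genes tested had positive log2 differences (medians 0.79 and 0.84), and their part in the other differences was not tested. Without Scrublet doublets 93 genes were higher and 84 lower, and 80 of the 97 genes remained.

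**Figure D3:**
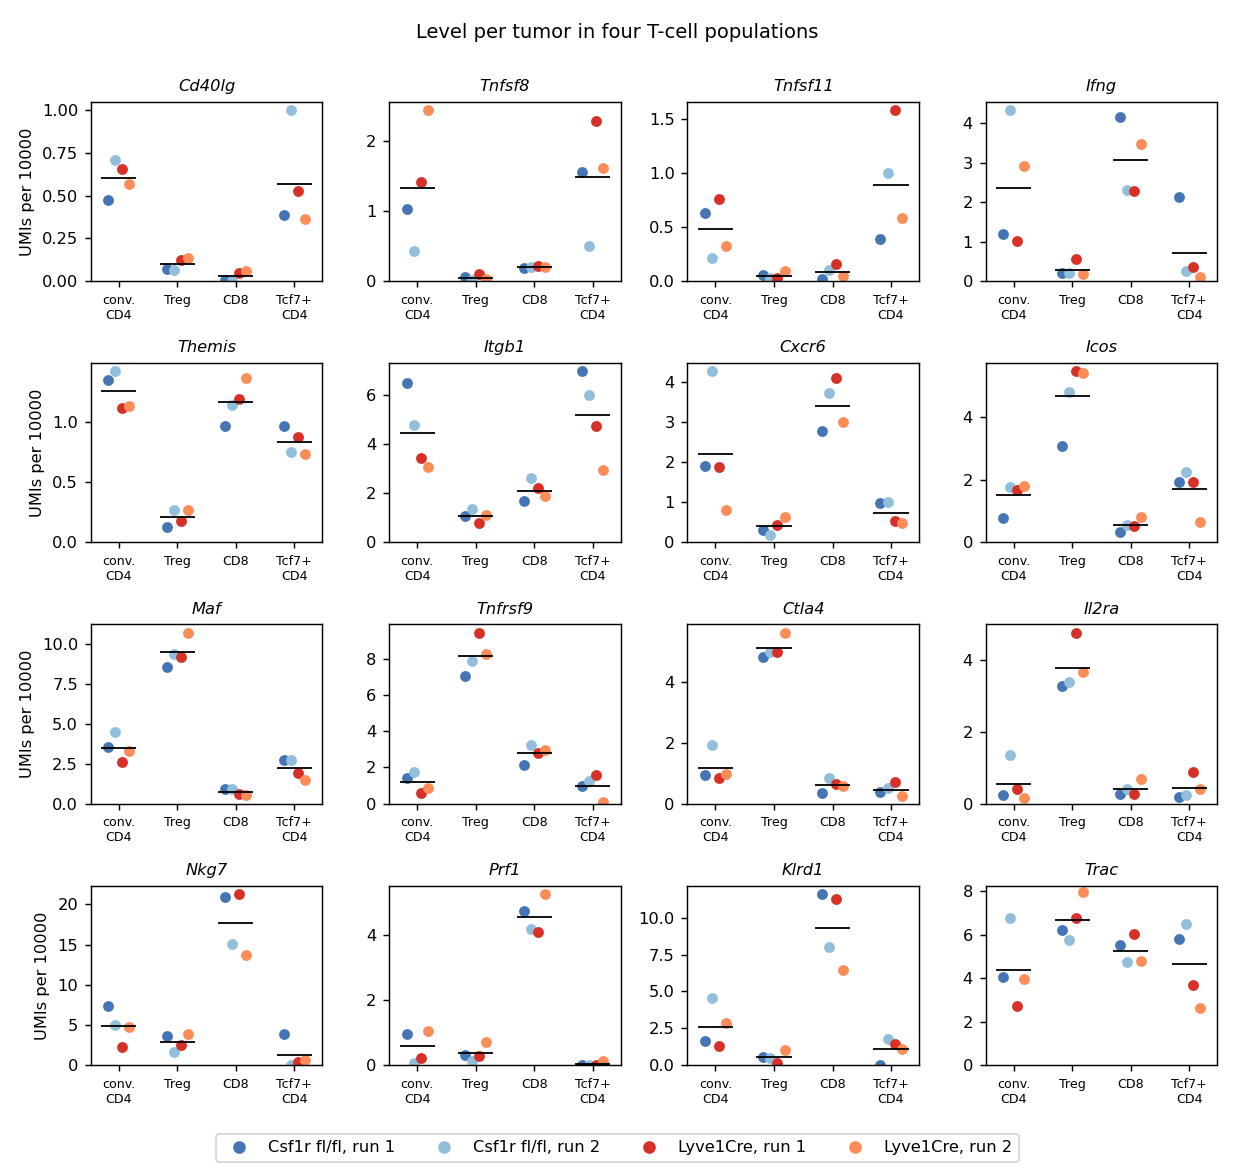
Level of 16 genes in UMIs per 10000, per tumor (points, colored by tumor) with the mean of 4 tumors (line), in conventional CD4, regulatory T, CD8 T and Tcf7-positive CD4 T cells. Cd40lg and Tnfsf8 of every conventional sample lie above every regulatory T and CD8 sample, Tnfrsf9, Ctla4 and Il2ra are highest in regulatory T cells, and Nkg7, Prf1 and Klrd1 in CD8 T cells.

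The second comparison set the same cells against CD8 T cells of the same tumors (Cd8a or Cd8b1 at least 1 and Cd4 at 0, the rule being otherwise the same; 610, 164, 228 and 161 cells). Of 5697 genes tested, 112 passed (1.97%), with 46 higher in the conventional CD4 T cells (0.807%) and 66 lower (1.16%). The count was 56 without the Lyve1CreCsf1rfl/fl tumor of run 1 and 46 without the Lyve1CreCsf1rfl/fl tumor of run 2. The costimulatory list had 7 of 11 genes higher and 2 lower and a median log2 difference of 1.22 against -0.00 over all genes tested, and the cytotoxic list had 8 of 14 lower and 1 higher with a median of -1.99. CD8 T cells had more UMIs per cell (median 3984 against 3284).

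All 3 TNF-family ligands of the list were higher in the conventional cells. Cd40lg was at 0.603 ± 0.104 (SD, n = 4) against 0.00595, 0, 0.0457 and 0.0582 in the CD8 T cells (log2 difference 4.54 ± 0.58 SE, edgeR adjusted p = 0.000291), and no tumor overlapped. Tnfsf8 was higher (2.58 ± 0.34 SE, edgeR adjusted p = 0.00035), with CD8 levels of 0.181, 0.195, 0.217 and 0.198. Tnfsf11 was at 0.632, 0.213, 0.759 and 0.324 against 0.0178, 0.0977, 0.16 and 0.0466 (2.71 ± 0.55 SE, edgeR adjusted p = 0.0136), also without overlap, and its call was lost without the Csf1rfl/fl tumor of run 1 (0.0555), without the Lyve1CreCsf1rfl/fl tumor of run 1 (0.0761) and without the Lyve1CreCsf1rfl/fl tumor of run 2 (0.0551).

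Receptors that were lower against regulatory T cells were in part higher against CD8 T cells. Icos (chromosome 1, 60977927 to 61000320) was at 0.791, 1.78, 1.67 and 1.78 against 0.318, 0.537, 0.525 and 0.803 (log2 difference 1.42 ± 0.24 SE, edgeR adjusted p = 0.00365), and the lowest conventional sample fell just under the highest CD8 sample. Tnfrsf4 (1.22), Tnfrsf18 (0.96) and Slamf6 (2.03) were also higher. The calls of Tnfrsf4 and Tnfrsf18 were lost without the Csf1rfl/fl tumor of run 1, the Csf1rfl/fl tumor of run 2 or the Lyve1CreCsf1rfl/fl tumor of run 1 (edgeR adjusted p from 0.0658 to 0.11), that of Tnfrsf4 also without Scrublet doublets (0.0814) and that of Tnfrsf18 without the replicate block (0.0724), and that of Slamf6 without the Csf1rfl/fl tumor of run 1 or either Lyve1CreCsf1rfl/fl tumor (up to 0.12). Tnfrsf9 (-1.36) and Cd27 (-2.16) were lower than in CD8 T cells as well, Tnfrsf9 not without the Lyve1CreCsf1rfl/fl tumor of run 1 or the Lyve1CreCsf1rfl/fl tumor of run 2 (0.063 and 0.0774). The levels of Icos thus stood in the order regulatory T, conventional CD4 and CD8 T cells (4.68 ± 1.12, 1.50 ± 0.479 and 0.546 ± 0.199, SD, n = 4).

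Maf, Gata3, Rora and Runx1 were the transcription factors named here that passed as higher. Maf (chromosome 8, 115682942 to 115707794) was at 3.56, 4.48, 2.58 and 3.32 against 0.928, 0.928, 0.594 and 0.512, without overlap (log2 difference 2.17 ± 0.21 SE, edgeR adjusted p = 4.64e-05). C1q-gated cells had a Maf UMI in 80.9% of cases, and the level in the 28 cells called doublets, 3.46, was close to the 3.37 of the others. Gata3 (1.29), Rora (1.39), a nuclear receptor of Th17 and innate lymphoid cells, and Runx1 (1.38) were higher too, while Gata3 was lost without Scrublet doublets (edgeR adjusted p = 0.0712). Gata3 was also lost without the Csf1rfl/fl tumor of run 1 and Rora without the Csf1rfl/fl tumor of run 2 (0.103 and 0.131), and both without the Lyve1CreCsf1rfl/fl tumor of run 1 (0.147 and 0.0769) and without the Lyve1CreCsf1rfl/fl tumor of run 2 (0.0724 and 0.103). Penk, the gene for the opioid precursor proenkephalin (chromosome 4, 4133531 to 4138819), was at 0.395, 2.63, 1.72 and 2.35 against 0.253, 0.0855, 0.183 and 0.198 (log2 difference 3.06 ± 0.43 SE, edgeR adjusted p = 0.000682). It was found in 17 conventional cells. Penk was not particular to them, at 3.12, 2.15, 5.55 and 2.23 in the regulatory T cells. In Tcf7-positive CD4 T cells of the same tumors it was at 0.969, 7.25, 14.0 and 0.583.

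The cytotoxic programme of CD8 T cells was lower in part. Prf1, the pore-forming perforin (chromosome 10, 61297833 to 61304680), was at 0.949, 0.0711, 0.202 and 1.05 against 4.72, 4.17, 4.09 and 5.25 (log2 difference -3.22 ± 0.34 SE, edgeR adjusted p = 6.57e-05), without overlap. Nkg7 (-2.0), Klrd1 (-1.98), the NK receptors Klrk1 (-2.40) and Klrc1 (-2.69), the granzyme Gzmf (-3.31), and the granule proteases or inhibitors Ctsw (-1.64) and Cst7 (-2.14) were lower as well, Ctsw not without the Lyve1CreCsf1rfl/fl tumor of run 2 (0.0524). The granzymes Gzma and Gzmb did not pass. Gzmb was at 3.25 ± 2.84 against 6.32 ± 0.526 (SD, n = 4; edgeR adjusted p = 0.132) and Gzma at 7.27 ± 6.78 against 2.51 ± 1.53 (SD, n = 4; 0.424). Gzmc was higher (1.96, edgeR adjusted p = 0.0141), but 1 cell held 45.0% of its UMIs 9 conventional cells had any, and the call was lost without the replicate block (0.206) and without the Csf1rfl/fl tumor of run 2 or either Lyve1CreCsf1rfl/fl tumor (0.0755 to 0.0828).

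None of the 9 Th1 genes tested against CD8 T cells passed. Ifng was at 2.36 ± 1.57 against 3.06 ± 0.912 (SD, n = 4; log2 difference -0.53 ± 0.31 SE, edgeR adjusted p = 0.545). Cxcr6 (-0.79 ± 0.25 SE), Pdcd1 (-0.39 ± 0.24 SE) and Ccl5 (-0.46 ± 0.32 SE) did not pass either. Among inhibitory receptors and exhaustion-associated genes, Cd160 (-3.05), Lag3 (-1.74) and Tox (-1.47) were lower, 3 of 8 tested. Without the Lyve1CreCsf1rfl/fl tumor of run 2 their calls were lost (edgeR adjusted p = 0.0516, 0.0724 and 0.0516), and that of Tox also without the Lyve1CreCsf1rfl/fl tumor of run 1 (0.0597). Ccl4, an inflammatory chemokine, and Nr4a2, an immediate early nuclear receptor, were lower (-1.19 and -2.05), Ccl4 not without the replicate block (0.0575). The γδ constant gene Tcrg-C2, which CD8 T cells also transcribe, had no UMI in the conventional cells and 461 in CD8 T cells, at least 15.3-fold lower with 3 UMIs over all 4 tumors as the floor. Slc17a6 likewise was at least 6.43-fold lower, and its call was lost without the Lyve1CreCsf1rfl/fl tumor of run 1 (0.05).

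Further list members that were higher than in CD8 T cells were Il7r (1.03), Itgb1 (1.0), Cd5 (1.29), Ebi3 (2.65), Ifit1 (0.99) and Iigp1 (1.85). All 17 interferon genes tested had positive log2 differences (median 0.59), of which these last genes, Ifit1 and Iigp1, passed. Against regulatory T cells Iigp1 was the only interferon gene of 17 tested that passed, and was lower (-1.25, edgeR adjusted p = 0.05, just under the threshold), and that call was lost with at least 2 Cd3 UMIs (0.143) and without the Csf1rfl/fl tumor of run 2 or either Lyve1CreCsf1rfl/fl tumor (0.177 to 0.282). Trbc2 (-0.87), Stmn1 (-1.84), Klre1 (-2.74) and the granulocyte-list gene G0s2 (-2.85) were lower. By the naming rule Ckb, Nmrk1, Furin, Irf2bp2 and Cd2ap were also higher, and Hells, Ltf, Tmem163, Adgrg1 and Galnt3 lower, the last 4 with 2 or 3 UMIs in the conventional cells and ratios from 0.0842 to 0.14 (exact 95% counting intervals from 0.0101 to 0.414). Of the genes in this paragraph, Ebi3, Klre1, G0s2, Irf2bp2 and Hells kept their calls with any tumor left out, and each of the others lost its call without at least 1 tumor (highest edgeR adjusted p = 0.489, Nmrk1 without the Csf1rfl/fl tumor of run 2). Without the cell of over 20000 UMIs, an alternative chosen after seeing the data, 175 genes passed in place of 112, and 105 of the 112 remained.

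**Figure D4:**
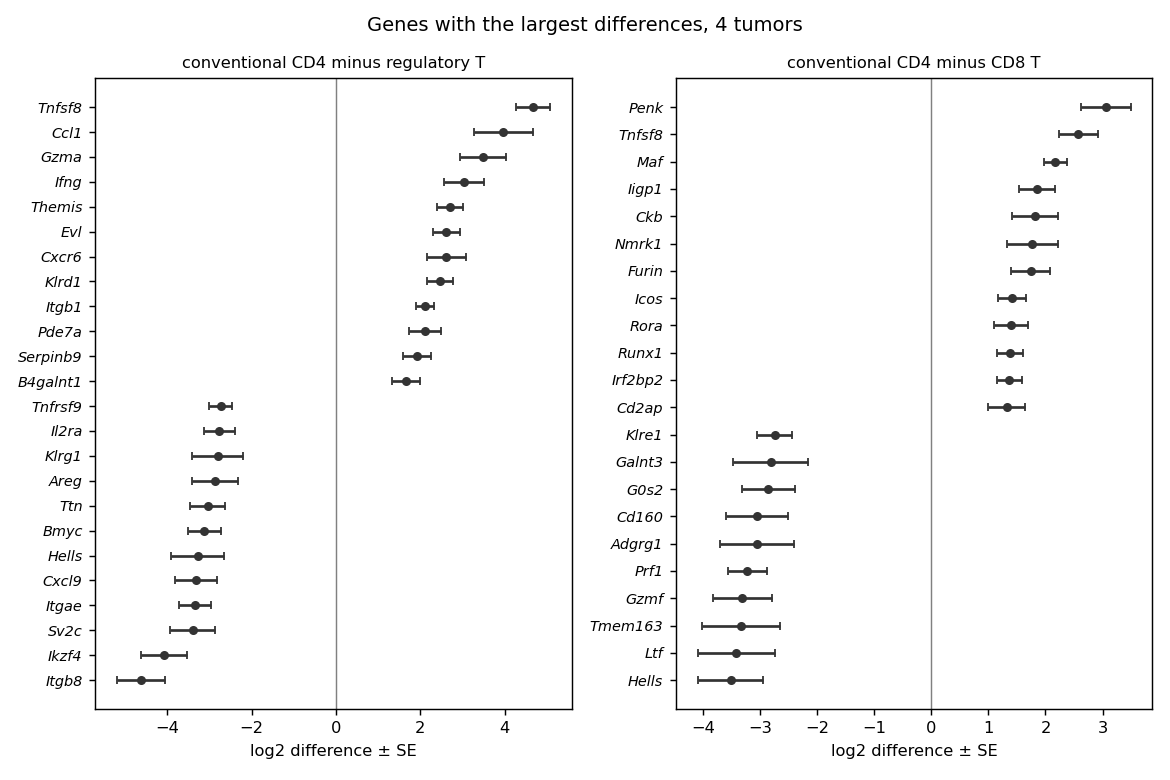
Log2 differences ± SE over 4 tumors of the genes with the largest differences, against regulatory T cells (left) and CD8 T cells (right). Positive values are higher in the conventional CD4 T cells, from 1.67 for B4galnt1 to 4.67 for Tnfsf8 on the left, and the 2 genes without a UMI in these cells, Tcrg-C2 and Slc17a6, are left out.

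The third comparison used CD4 T cells that differed from the members of the rule by at least 1 Tcf7 UMI, a factor of naive and stem-like T cells (15, 8, 18 and 41 cells). Of 1771 genes tested, 1 was higher (0.0565%) and 0 lower by edgeR, 116 had an unadjusted p under 0.05, and DESeq2 called 5, among them Gzma, Nkg7, Ccl1 and H2-Aa. Gzma was the gene called, at 15.0, 0.142, 3.29 and 10.6 against 1.74, 0, 0.526 and 0.437 (log2 difference 3.68 ± 0.38 SE, edgeR adjusted p = 0.00914), and the Csf1rfl/fl tumor of run 2, with 2 UMIs, overlapped the Tcf7-positive cells of the other tumors. A single conventional cell held most Gzma UMIs of the Csf1rfl/fl tumor of run 1 and of each Lyve1CreCsf1rfl/fl tumor. The Gzma call was lost with at least 2 Cd3 UMIs per cell (edgeR adjusted p = 0.127, an alternative chosen after seeing the data) and without the replicate block. Without the Csf1rfl/fl tumor of run 1 no gene passed in edgeR, with 64 at an unadjusted p under 0.05, and Gzma was not among the genes tested there.

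No other gene passed in edgeR. Nkg7, which marks cytolytic granules, was at 7.35, 4.98, 2.18 and 4.78 against 3.88, 0, 0.35 and 0.656, above in each tumor without passing (edgeR adjusted p = 0.386). Il7r was at 2.05 ± 0.525 against 4.32 ± 1.55 and S1pr1, the receptor for exit to lymph, at 0.477 ± 0.393 against 1.68 ± 0.785 (SD, n = 4), below in each tumor without passing (edgeR adjusted p = 0.573 and 0.689). All 6 naive and memory genes tested had negative log2 differences (median -0.73) and all 5 cytotoxic genes positive ones (median 1.64), against a median of 0.01 over all genes. The rule separates these populations by Tcf7, so the direction of the naive and memory list is not independent of the choice of cells. Tnfsf8 was at 1.33 ± 0.842 against 1.48 ± 0.734 (SD, n = 4; log2 difference -0.13 ± 0.34 SE). Cd40lg was at 0.603 ± 0.104 against 0.569 ± 0.296 and Tnfsf11 at 0.482 ± 0.256 against 0.887 ± 0.526 (SD, n = 4). The helper ligands were thus not particular to the conventional cells without Tcf7.

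The genotype comparison asked whether conventional CD4 T cells of Lyve1CreCsf1rfl/fl tumors differed from those of Csf1rfl/fl tumors. Of 2064 genes tested, edgeR's quasi-likelihood test called 0 (0%), with 77 at an unadjusted p under 0.05, and DESeq2 called 1, Lyz2. Leaving out a tumor, where the lone tumor of a genotype is taken to vary like the others, gave 13 genes without the Csf1rfl/fl tumor of run 2, 8 without the Lyve1CreCsf1rfl/fl tumor of run 1 and 23 without the Lyve1CreCsf1rfl/fl tumor of run 2. With the run as a replicate block the count was also 0, with 107 at an unadjusted p under 0.05. Counts were simulated with the same depths and a fixed spread between tumors for every gene, which was not estimated from these cells. They gave recovery of 60.2% of 4-fold and 8.79% of 2-fold changes, so changes of 2-fold were mostly not detectable with these numbers of cells. Recovery for genes that spread more between tumors was not tested.

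No T-cell gene passed between genotypes. Ifng differed by -0.51 ± 0.61 (log2, SE; edgeR adjusted p = 0.9995), Icos by 0.44 ± 0.46 and Themis by -0.27 ± 0.41. Tnfsf8, at 1.03 and 0.426 in Csf1rfl/fl and 1.42 and 2.43 in Lyve1CreCsf1rfl/fl tumors, had a log2 difference of 1.40 ± 0.52 SE and did not pass. A single cell held 26 of the 30 Tnfsf8 UMIs behind the 2.43, and the difference without that cell was not tested. Of 12 TCR signalling genes 11 had negative log2 differences (median -0.64) and of 10 trafficking genes 9 (median -0.46), against a median of -0.01 over all genes tested. Without the cell of over 20000 UMIs, which had no TCR signalling UMI, they were 11 of 12 (median -0.46) and 8 of 10 (median -0.29). Zap70, the kinase of the T-cell receptor, was at 2.06, 1.85, 0.607 and 1.05, and Pdcd1 at 1.66, 2.42, 1.16 and 0.891. Neither passed the threshold, and the share of all tested genes with the same order of tumors was not computed.

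The leading differences included myeloid transcripts, and none passed in edgeR with all 4 tumors, all cells and the expression filter. Lyz2, the lysozyme gene of macrophages and granulocytes, was at 2.06, 4.76, 23.6 and 13.9 (log2 difference 2.49 ± 0.46 SE, edgeR adjusted p = 0.187). It passed in DESeq2 (adjusted p = 0.000694) and in edgeR with no expression filter beyond 1 UMI (1.4e-05), without the Csf1rfl/fl tumor of run 2 (0.000156) or without the Lyve1CreCsf1rfl/fl tumor of run 2 (0.000895). Thbs1, Ier3 and Gimap7, a GTPase of lymphocytes, differed by 3.63, 2.59 and -2.63, and Thbs1 had only 2 and 1 UMIs in the Csf1rfl/fl tumors. The summed granulocyte list was at 8.46, 6.75, 35.4 and 13.0 and the macrophage list at 5.77, 11.8, 29.6 and 21.3. Cxcl2 made up 26.4 of the 35.4, and 1 cell held 288 of the 521 Cxcl2 UMIs of that tumor. All 3 granulocyte-list and all 5 macrophage-list genes tested had positive log2 differences (medians 1.04 and 0.65). Lyz2 was at 29.8 in the 28 cells called doublets and at 4.3 in the others. Without Scrublet doublets the log2 difference of Lyz2 was 0.93 (edgeR adjusted p = 0.998), and of the genes still tested both granulocyte-list genes (median 2.15) and 1 of 2 macrophage-list genes (median 0.41) had positive differences. The dendritic list, at 38.5, 56.9, 23.2 and 61.8, overlapped between genotypes, while the granulocyte and macrophage lists did not. Such an order was not particular to them. The TCR signalling, costimulatory, Th1, Tfh, regulatory T and trafficking lists were lower in Lyve1CreCsf1rfl/fl tumors without overlap, and the NK and NKT list higher. The smallest p that an exact two-sided permutation test of 2 against 2 tumors allows is 0.333.

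**Figure D5:**
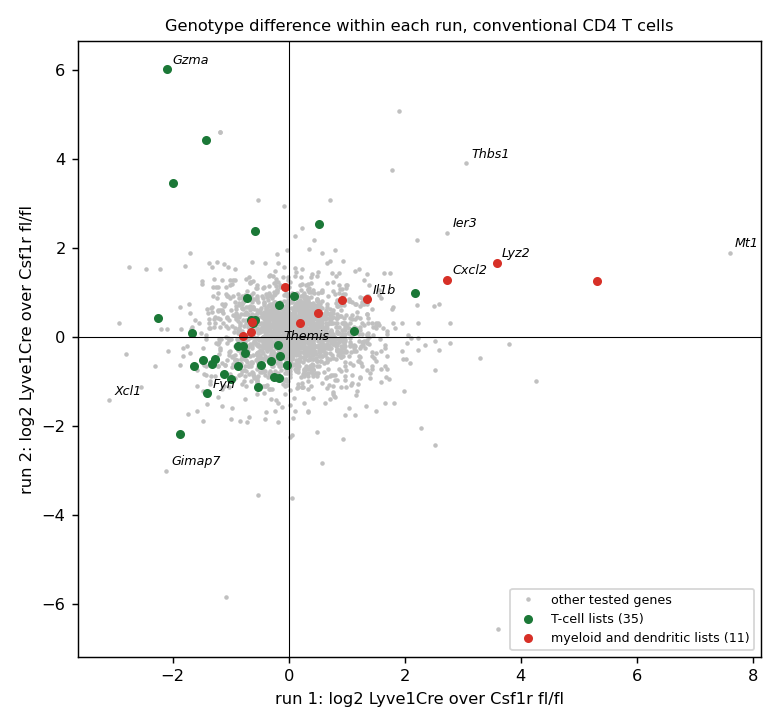
Log2 difference between Lyve1CreCsf1rfl/fl and Csf1rfl/fl tumors within run 1 (x axis) and within run 2 (y axis) for each of the 2064 genes tested in conventional CD4 T cells, with T-cell lists and myeloid and dendritic lists colored. Lyz2 (3.58 and 1.67) and Thbs1 (3.05 and 3.92) lie in the upper right, Gimap7 (-2.11 and -3.01) in the lower left, and no gene passed edgeR's test.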

How the data were processed

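Single-cell RNA libraries of CD45+ cells from 4 tumors were made by the authors with the Chromium 3′ v2 kit and TotalSeq hashtags, and processed with Cell Ranger 6.0.1 on mm10 and Seurat (versions per the labels). The deposited files hold raw UMI counts per cell and gene, raw hashtag counts, and a normalized table (a score from SCTransform), used only to name the cells the authors kept after removing doublets, cells with 5% or more mitochondrial reads and ribosome-rich lymphocytes. Members and gene lists were chosen with earlier results of these data known.

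Counts of the members and of each compared population were summed per tumor and tested with edgeR 4.0.16 (R 4.3.3; filterByExpr, TMM, quasi-likelihood test, Benjamini-Hochberg adjusted p under 0.05), with the tumor as a block between populations and no block between genotypes. DESeq2 1.42.0 was an alternative. Genes of the rule were not counted as tests. Named genes were up to 12 higher and 12 lower per comparison with the largest log2 difference, an average log2 CPM of at least 5 and the same direction in all tumors, plus the list members. The SE was the log2 difference over the square root of the F statistic. Shares were compared by exact permutation over tumors, with Wilson intervals. Scrublet in scanpy 1.11.5 (expected doublet rate 0.2) marked doublets. Intervals and floors cover counting error only, and p-values measure the spread between these 4 tumors.

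Replicate numbers mark the Chromium run shared by a tumor of each genotype. The deviations of same-run tumors correlated at 0.109 over 2064 genes. Positions are from GENCODE vM21 on mm10. Counts were simulated from the real means with a fixed spread between tumors for every gene, not estimated from these data. On them the test recovered 85.7%, 74.2% and 92.8% of 4-fold changes against regulatory T, CD8 and Tcf7-positive cells. It made 2, 1 and 4 false calls, against 5 between genotypes.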

Additional observations from a re-analysis of the deposited data

Results flagged for a closer look

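The difference between the conventional CD4 T cells and a compared population was itself compared between genotypes with an interaction term in edgeR's quasi-likelihood test, chosen after seeing the data. Against regulatory T cells, 11 of 4453 genes passed (0.247%), each with a larger log2 difference in Lyve1CreCsf1rfl/fl tumors. They were Thbs1 (by 5.30), Lyz2 (3.50), Ier3 (3.12), Cxcl2 (3.05), Tgfbi (2.20), Fcer1g (2.17), Ccl4 (2.01), Tyrobp (1.77), Il1b (1.77), Ifitm3 (1.74) and Plac8 (1.65), and most are genes of granulocytes, monocytes or macrophages. Thbs1 had only 2 and 1 UMIs in the conventional cells of the Csf1rfl/fl tumors, so its size is set near the floor. For Cxcl2, 1 cell held 288 of the 521 UMIs of the Lyve1CreCsf1rfl/fl tumor of run 1. Against CD8 T cells, 9 of 5697 passed (0.158%). Thbs1 (5.26), Mt1 (4.52), Ier3 (2.82), Lyz2 (2.62), Cxcl2 (2.42), Fcer1g (1.61), Ifitm3 (1.40) and S100a6 (1.40) had larger differences in Lyve1CreCsf1rfl/fl tumors and Xcl1, a chemokine of cytotoxic T and NK cells, a smaller one (-4.64). Xcl1 was found in 12 conventional cells, at 2.53, 0.782, 0.253 and 0.243 UMIs per 10000 over the 4 tumors. These levels rested on 32, 11, 5 and 3 UMIs in 5, 2, 3 and 2 cells, so the size for Xcl1 is set near the floor. In CD8 T cells Xcl1 was at 1.77, 0.781, 3.64 and 7.81, so that the genotypes stood in opposite order in the 2 populations. Against the Tcf7-positive cells edgeR called 0, with 25 at an unadjusted p under 0.05.

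Without Scrublet doublets 0 genes passed against regulatory T cells in edgeR (124 at an unadjusted p under 0.05) and 1, Xcl1, against CD8 T cells (-5.56). Lyz2 then had differences of 0.85 and 0.46, and Cxcl2 of 3.02 and 4.27. Thbs1 was not tested in this setting against either population, nor was Ier3 against regulatory T cells. Without the cell of over 20000 UMIs the counts were 12 and 8, and the calls of Mt1 and S100a6 were lost (2.43 and 0.99, edgeR adjusted p = 0.789 and 0.226). Mt1 had 80.9% of its UMIs in 1 cell. With at least 2 Cd3 UMIs the counts were 12 and 7, and of the genes above Plac8 and Ier3 lost their calls against regulatory T cells and S100a6, Ifitm3, Mt1 and Ier3 against CD8 T cells. With 2000 to 8000 UMIs per cell the counts were 4 and 2, and of the genes above Thbs1 and Cxcl2 passed against regulatory T cells and Cxcl2 against CD8 T cells, where Thbs1 was not tested and Xcl1 was at -3.75 (edgeR adjusted p = 0.055). The part of mixed droplets in these differences was not tested beyond these values.

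Barcodes that the study did not keep also passed the rule, at a higher share in the tumor with Cre within each run, while the genotypes overlapped across runs. In Lyve1CreCsf1rfl/fl tumors they were 0.341% of the barcodes not kept in run 1 (23 of 6745) and 0.812% in run 2 (77 of 9483), against 0.0568% (2 of 3520) and 0.427% (22 of 5158) in Csf1rfl/fl tumors. The 77 had a median of 30.8% ribosomal UMIs, and in 17 of them the higher hashtag was less than 3 times the lower one.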

How the results depend on the processing

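The log2 ratio of the share was positive under all alternatives, from 0.16 with 2000 to 8000 UMIs per cell to 1.05 with Tcf7 left out of the rule, and from 0.25 to 0.71 when 1 tumor was left out. Against regulatory T cells 97 genes passed, 94 without the replicate block, 66 in DESeq2, 291 without the expression filter, 177 without Scrublet doublets and 227 with 2000 to 8000 UMIs; leaving out 1 tumor gave 38 to 169. Against CD8 T cells 112 passed, 101 without the block, 80 in DESeq2, 253 without the filter, 189 with 2000 to 8000 UMIs and 175 without the cell of over 20000 UMIs; leaving out 1 tumor gave 46 to 98. Against Tcf7-positive cells 1 passed, 5 in DESeq2, 27 without the filter, 3 without Scrublet doublets, 2 each with RLE size factors, a hashtag margin of 3, at least 2 Cd3 UMIs, no replicate block or without the cell of over 20000 UMIs, and 0 to 2 with 1 tumor left out. Between genotypes 0 passed, 1 in DESeq2, 25 without the filter, 4 with 2000 to 8000 UMIs, 0 with the run as a replicate block and 0 to 23 with 1 tumor left out. The cause of these changes was not tested. Higher genes were 33.0% of those called against regulatory T cells, but 52.5% without Scrublet doublets and 59.0% with 2000 to 8000 UMIs. Of 24 genes named by the rule against regulatory T cells 16 were called in every alternative that tested them, and of 24 against CD8 T cells 12, with no direction reversed. The 127 cells held 126502, 140688, 197638 and 123421 UMIs per tumor.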

Other observations

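The interferon-inducible gene Ifi27l2a was found in 125 of the 127 cells, at 125, 56.3, 75.5 and 69.0 UMIs per 10000 over the 4 tumors in the same order, with the Csf1rfl/fl tumor of run 1 highest. It was also found in 91.2% of granulocyte-gated and 98.6% of C1q-gated cells. Hspa8, a constitutive chaperone, was found in 115 cells, and the heat-inducible Hspa1a in 65, at 3.32, 1.71, 4.0 and 6.24. The summed heat shock list was at 22.8, 39.0, 26.8 and 39.5, higher in run 2 than in run 1 in both genotypes, and no gene of it passed in any of the 4 comparisons. Ltb, the gene for lymphotoxin β, was found in 80 cells. Single cells carried much of some transcripts: Mt1 had 80.9% of its UMIs in 1 cell, Areg 62.5%, Ccr7 47.4% and Cxcl2 43.0%.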
